A study of Mus musculus with 14 samples.

Results

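The genes described here encode enzymes that make reactive oxygen species or nitric oxide in the mouse colon, together with the subunits those enzymes need. The list held 9 genes. The inducible nitric oxide synthase gene Nos2 was one of them. The epithelial oxidases were represented by Duox2, its maturation factor Duoxa2, Nox1 and the NOX1 organizer Noxo1, and the phagocyte oxidase by Cybb, Cyba, Ncf1 and Ncf4. Members were found through the RefSeq accession of each array probe, and 8 of the 9 genes, of 19096 symbols named on the array, were reached by 10 probes. No probe accession matched Duox2, so Duox2 was not analysed here and the epithelial side rests on Nox1, Noxo1 and Duoxa2.

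NADPH oxidases pass electrons from NADPH across a membrane to oxygen. In the colon NOX1, with its organizer NOXO1 and activator NOXA1, is a product of epithelial cells, and DUOX2, which needs DUOXA2 to reach the cell surface, releases hydrogen peroxide toward the lumen. Neutrophils and macrophages carry the NOX2 complex, which holds the catalytic subunit encoded by Cybb, its membrane partner encoded by Cyba, cytosolic subunits such as those encoded by Ncf1 and Ncf4, and the GTPase RAC2. NOS2 makes nitric oxide from arginine once its gene is induced, and both epithelial cells and leukocytes can express it.

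Whole-colon RNA from 14 female C57BL/6 mice, 4 to 6 months old and fed chow, was hybridized to 1-colour Agilent arrays, with 1 mouse on each array. Flox mice, the controls, carry floxed alleles of Nr3c1, the gene of the glucocorticoid receptor (GR). GR iKO mice carry the same floxed alleles with Villin-cre, which deletes the receptor constitutively in intestinal epithelium and leaves it in the other cells of the colon. Each genotype received regular water (4 Flox and 4 GR iKO mice) or water with 2.5% dextran sulfate sodium (DSS), a polymer that injures the colonic epithelium, for 7 days (3 Flox and 3 GR iKO mice).

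A level below is the log2 signal of a probe minus the 75th percentile of its array, so that 0 is the 75th percentile, and levels of different probes cannot be ranked against each other. A difference is between group means of that level, from limma's test over all 14 arrays, in which DSS and water arrays could differ in spread. It was called at an adjusted p below 0.05, with Benjamini-Hochberg adjustment over the 29523 probes tested. The 75th percentile itself ranged from 707 to 1003 on water arrays and from 262 to 713 on DSS arrays, so array brightness went largely with treatment. Between arrays 62.6% to 71.3% of probes rose well above background, and no spot was saturated. The 75th percentile and this share were both lowest on Flox DSS replicate 4. Each group occupied its own position on the slides, so slide position and group cannot be told apart. Scaling to spike-in transcripts instead moved the median difference of all probes from -0.09 to -2.45 in Flox and from -0.02 to -0.99 in GR iKO, so each change below is relative to the bulk of the genes. That scaling also moved the split of called probes with DSS in Flox from 6434 higher and 7499 lower to 212 higher and 25164 lower. In GR iKO the split moved from 5623 higher and 5825 lower to 736 higher and 12707 lower. Normexp background correction gave 9197 higher and 4815 lower in Flox.

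The targeted gene was lower in GR iKO mice, without overlap in either treatment for the probe of highest mean level. Nr3c1, read by probe A_52_P138090, had a level on water of 1.19 ± 0.14 (SD, n = 4) in Flox. In GR iKO mice on water it was 0.39 ± 0.16 (SD, n = 4), so GR iKO colons kept 57.3% of the Flox signal (adjusted p = 0.00912; exact permutation test, p = 0.0286). On DSS the GR iKO signal was 56.1% of that in Flox, with an adjusted p of 0.0921. That difference was called in 2 of 26 alternatives, with 1 shared spread (adjusted p = 0.00718) and without Flox DSS replicate 4 (adjusted p = 0.0468). With spike-in scaling its sign turned, to 0.39. The call on water was lost in 6 of 26 alternatives while keeping its sign: with only the groups compared (adjusted p = 0.293), with the replicate number (adjusted p = 0.17) or the slide (adjusted p = 0.152) as a block, with spike-in scaling (adjusted p = 0.195), with 1 shared spread for all arrays (adjusted p = 0.0968) and without Flox water replicate 3 (adjusted p = 0.0584). Of its other 3 probes, A_52_P63106 was called on water (-0.88, adjusted p = 0.00245). A_51_P355693 (-1.07, adjusted p = 0.143) and A_52_P254174 (-0.84, adjusted p = 0.9999), whose genotypes overlapped, were not. On DSS none was called, and for A_51_P355693 (-0.40) the genotypes overlapped. With DSS in Flox A_51_P355693 alone fell, by 0.76 (adjusted p = 0.0449). Whether the probe reads the deleted part of the gene was not determined here.

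DSS moved the members in both directions. In Flox mice 2 of the 8 genes rose (Nos2 and Ncf1), against 21.8% of all probes, and 2 fell (Nox1 and Noxo1), against 25.4%. In GR iKO mice 5 rose (Nos2, Cybb, Cyba, Ncf1 and Ncf4), against 19% of all probes, and Nox1 fell, against 19.7%. The median difference of the 8 genes was 0.54 in Flox and 1.78 in GR iKO. With spike-in scaling, in Flox Nos2 alone rose and 6 members fell, and in GR iKO Nos2 alone rose and 2 fell. The number of leukocytes in the tissue and the RNA made per cell cannot be told apart in whole colon, here and in every result below.

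**Figure D1:**
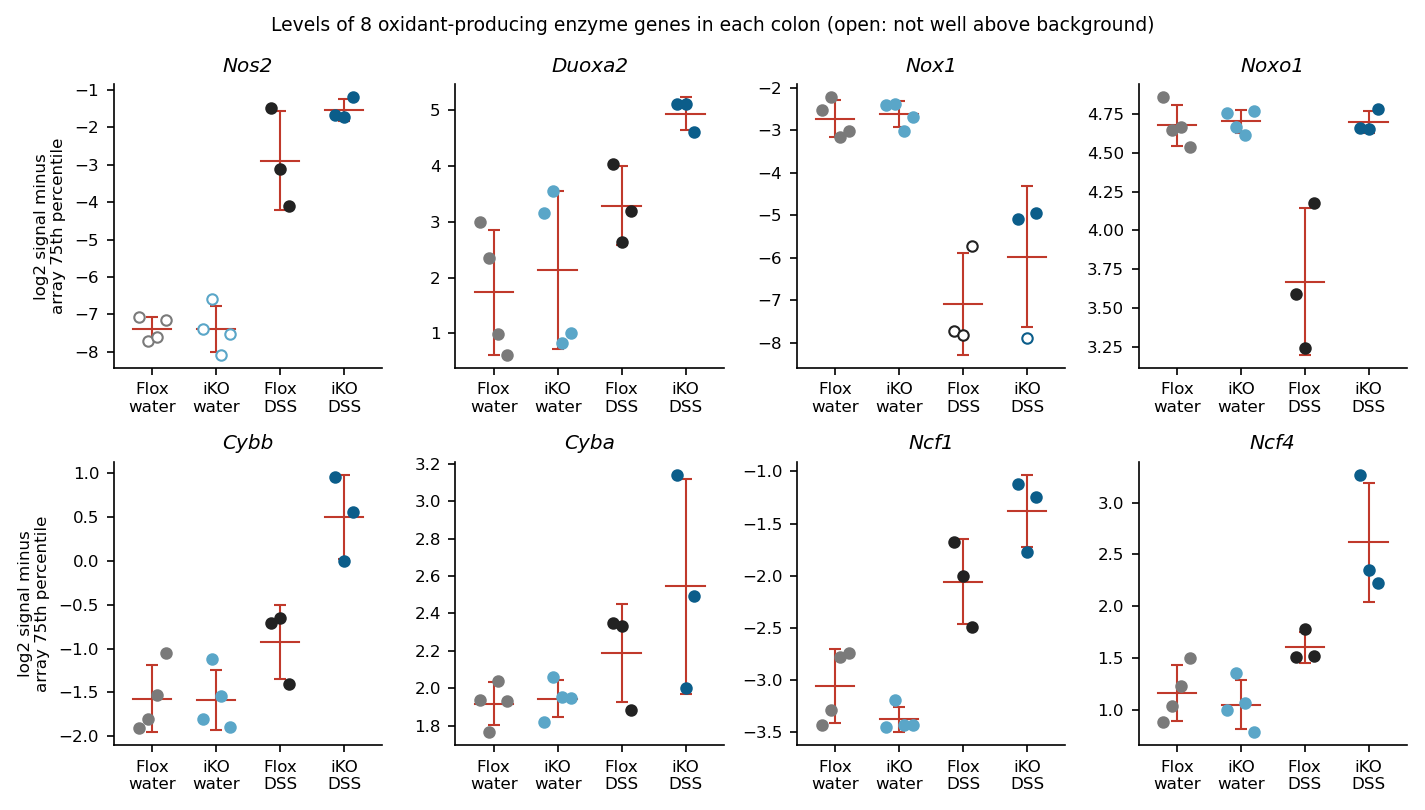
Each panel plots 1 gene, with the log2 level of its probe (75th percentile of the array at 0) on the vertical axis and the 4 groups along the horizontal axis. Points are single mice (n = 4 on water, n = 3 on DSS), open where the probe was not well above background, and red lines give the mean and SD. Nos2 lay between -8.08 and -6.59 on water and between -4.09 and -1.20 on DSS, Nox1 moved the other way, and Noxo1 was low in the 3 Flox DSS mice but not in the 3 GR iKO DSS mice.

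Nos2 rose from background in both genotypes. Its levels on water were -7.08, -7.71, -7.59 and -7.15 in Flox and -7.39, -6.59, -8.08 and -7.52 in GR iKO mice, and it was well above background on none of these arrays. On DSS it was measured in every mouse, at -1.48, -3.11 and -4.09 in Flox and at -1.67, -1.73 and -1.20 in GR iKO. The water and DSS groups did not overlap in either genotype. Because the water signal is only a bound, Nos2 was at least 8.67-fold higher on DSS in Flox (adjusted p = 4.85e-05) and at least 20.0-fold higher in GR iKO (adjusted p = 1.55e-05). These bounds set the DSS mean against the dimmest signal counted as well above background on each water array. Normexp correction, which compresses dim signals, gave differences of 1.75 and 2.38 in place of 4.49 and 5.86, and kept both calls.

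Flox and GR iKO mice on DSS were not separated for Nos2. Flox replicate 1 lay within the GR iKO range, and the SD was 1.32 in Flox and 0.29 in GR iKO. The difference was 1.36 (95% interval -0.14 to 2.86, adjusted p = 0.335). On the pair of slides that held both DSS groups it was -0.26 and 2.90. In ascending order the group levels were both water groups, whose means were -7.38 and -7.40, then Flox DSS and GR iKO DSS, and limma's test separated neither the water pair nor the DSS pair.

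The other nitric oxide synthase genes also rose on DSS in both genotypes. Nos1, the neuronal enzyme, rose by 3.26 in Flox (adjusted p = 1.51e-05) and, from a water signal not well above background, to at least 1.89-fold its water level in GR iKO (adjusted p = 0.000469). On water Nos1 was well above background on 1 of 4 Flox arrays, so the Flox value also starts from dim signals. Its DSS levels were -3.11, -3.77 and -3.77 in Flox and -5.01, -4.81 and -4.98 in GR iKO, so on this gene the Flox mice were the higher group, without overlap (difference -1.39, adjusted p = 0.129). Nos3, the endothelial enzyme, rose by 1.66 (adjusted p = 0.000339) in Flox mice and by 1.54 (adjusted p = 0.000835) in GR iKO mice. The summed level of 6 smooth muscle markers was highest in Flox DSS, as Nos1 was: 1036 to 1874, against 413 to 695 on water. In GR iKO DSS it was 353 to 823, a range that overlapped water, whereas Nos1 was higher there than on water. The part of muscle in the Nos1 values was not tested.

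Of 14 genes for arginine handling and nitric oxide supply, 5 rose and 2 fell with DSS in Flox, where 21.8% of all probes rose and 25.4% fell. In GR iKO 6 rose and 2 fell, against 19% and 19.7% of all probes. The median difference of the list was 0.72 in Flox and 0.55 in GR iKO. Arg1, which breaks arginine down to urea and ornithine, rose by 2.98 (adjusted p = 0.00027) in Flox mice and by 3.34 in GR iKO mice. Slc7a2, an arginine transporter, rose by 2.41 and 2.83, and Ass1, which rebuilds arginine from citrulline, rose by 1.20 and 0.67. Pts and Qdpr, both of the tetrahydrobiopterin pathway that supplies the NOS cofactor, fell by 1.06 and 0.73 in Flox and by 1.02 and 1.04 in GR iKO. No gene of the list was called between the genotypes on DSS by limma's test.

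Nox1, the catalytic subunit of the colonic epithelial oxidase, fell. Its water levels were -2.52, -2.22, -3.15 and -3.02 in Flox and -2.39, -2.37, -3.01 and -2.69 in GR iKO. On DSS they were -7.73, -7.82 and -5.71 in Flox, none well above background, and -5.08, -7.89 and -4.94 in GR iKO, where replicates 1 and 4 were well above background. No DSS mouse reached the lowest water mouse. Nox1 was at least 6.33-fold lower on DSS in Flox (adjusted p = 0.00015). In GR iKO the difference was -3.35 (95% interval -4.69 to -2.01, adjusted p = 0.00128). Between the genotypes on DSS it was 1.12 (95% interval -0.60 to 2.84, adjusted p = 0.51), which at 3 mice per group does not tell them apart. With normexp correction it fell by 0.80 in Flox and by 1.00 in GR iKO, and both calls held.

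Noxa1, which activates NOX1, fell as well, by 2.20 in Flox (adjusted p = 0.000155) and by 1.60 in GR iKO (adjusted p = 0.0019). Its levels were 1.88 to 2.26 over the 8 water mice, -0.85, -0.54 and 0.97 in Flox DSS and 0.76, -0.01 and 0.80 in GR iKO DSS. Duox1, the other dual oxidase, did not pass the test in either genotype (-0.53, adjusted p = 0.129, and -0.43, adjusted p = 0.229).

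Noxo1, the organizer that keeps NOX1 at the membrane, differed from both. Its levels were 4.85, 4.64, 4.67 and 4.53 in Flox and 4.75, 4.67, 4.61 and 4.77 in GR iKO mice on water. In Flox mice on DSS they were 3.59, 3.24 and 4.18, all below the lowest water mouse, whereas in GR iKO mice on DSS they were 4.66, 4.65 and 4.78, within the range of the 8 water mice. Noxo1 fell by 1.00 in Flox (SE 0.17, adjusted p = 0.00061), which is 2.00-fold lower, and its difference in GR iKO was 0.00 (95% interval -0.38 to 0.37). The means of Flox water (4.67), GR iKO water and GR iKO DSS (both 4.70) did not differ beyond their spread, and Flox DSS (3.67) stood below them. With spike-in scaling Noxo1 also fell in GR iKO, by 0.97 (adjusted p = 0.0392), close to the median of all probes under that scaling.

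The 2 genotypes on DSS did not overlap for Noxo1, and on the slides with both groups GR iKO was higher by 1.06 and 0.60. The difference was 1.02 (95% interval 0.54 to 1.51) and missed the threshold over all probes (adjusted p = 0.0785). It passed in 3 of 26 alternatives: with a trended and robust prior (adjusted p = 0.0488), without Flox DSS replicate 4 (adjusted p = 0.0299), and with 1 shared spread (adjusted p = 0.00931), a fit that ignores the wider spread of the DSS arrays. It did not with the replicate number (adjusted p = 0.0934) or the slide (adjusted p = 0.101) as a block, or with only the groups compared (adjusted p = 0.226). The test of the difference between the DSS responses of the genotypes gave 1.00 (95% interval 0.46 to 1.53, adjusted p = 0.151). The summed level of 10 epithelial markers was 948 to 1629 in Flox DSS and 1204 to 1695 in GR iKO DSS, ranges that overlap, and it was 1188 to 1458 on water. The median difference of the 10 markers was -0.43 with DSS in Flox, 0.03 in GR iKO and 0.57 between the genotypes on DSS. Of these markers Cdx1, Krt19, Epcam and Cldn7 fell in Flox, by 2.60, 0.88, 0.69 and 0.46, against 25.4% of all probes. Cdx1 alone fell in GR iKO, by 1.59, against 19.7%. The part of epithelial content in the Noxo1 values was not tested.

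The 250 bases before the start site are shown for the genes on the epithelial side, because Nox1 and Noxo1 encode partners of 1 enzyme and moved apart in GR iKO. Sequences are from RefSeq on GRCm38.p6, read 5′ to 3′ toward the start, with matches to any of 9 searched motifs in capitals.
Nox1, chrX:134111855-134112104, minus strand: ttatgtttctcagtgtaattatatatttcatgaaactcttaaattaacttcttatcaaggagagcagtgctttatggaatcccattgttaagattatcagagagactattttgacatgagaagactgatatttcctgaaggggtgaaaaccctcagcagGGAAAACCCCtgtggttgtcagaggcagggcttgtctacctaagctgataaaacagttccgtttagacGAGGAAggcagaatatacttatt
Noxo1, chr17:24695984-24696233, plus strand: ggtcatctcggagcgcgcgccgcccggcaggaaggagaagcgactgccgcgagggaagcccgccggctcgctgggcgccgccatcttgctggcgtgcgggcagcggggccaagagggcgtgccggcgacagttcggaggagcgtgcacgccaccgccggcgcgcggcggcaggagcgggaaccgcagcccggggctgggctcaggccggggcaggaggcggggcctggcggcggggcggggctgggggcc
Duoxa2, chr2:122298650-122298899, plus strand: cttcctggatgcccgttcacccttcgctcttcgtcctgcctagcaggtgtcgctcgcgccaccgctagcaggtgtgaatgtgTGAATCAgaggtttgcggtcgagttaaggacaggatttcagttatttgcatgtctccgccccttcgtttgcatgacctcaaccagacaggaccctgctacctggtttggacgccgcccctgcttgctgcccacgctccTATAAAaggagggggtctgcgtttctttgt
The motifs were GAGGAA (the core bound by PU.1), TATAAA (the TATA box), CCAAT (the CCAAT box), GGGNNTTTCC (NF-kB), TTCNNNGAA (STAT), TTTCNNTTTC (IRF), TGANTCA (AP-1), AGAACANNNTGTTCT (the GR element) and its half-site AGAACA, each searched on both strands. Nox1 held GAGGAA beginning 23 bases before the start and an NF-kB match on the minus strand, found in 23.3% and 1.41% of 32851 windows of this length. Noxo1 held none of the 9, in a window of 80% G and C against 38% for Nox1. Duoxa2 held TATAAA beginning 30 bases before its start, found in 12.4% of windows, and TGANTCA, found in 6.75%. The Duoxa2 start lies 673 bases from that of Duox2, which is read from the opposite strand. No window of the 7 members in the table held the whole GR element, which 0.00913% of windows held. A match is a description of letters, and none of these sites was measured.

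Duoxa2 ran high on DSS without passing the test. On DSS its levels were 4.04, 2.63 and 3.20 in Flox and 5.10, 5.11 and 4.60 in GR iKO, so the GR iKO mice lay above every other mouse of the study. On water they were 2.99, 2.36, 0.98 and 0.62 in Flox and 3.15, 3.56, 0.82 and 1.01 in GR iKO. That water spread, wider than that of any other member, left DSS differences of 1.55 in Flox (95% interval -0.79 to 3.90, adjusted p = 0.259) and 2.80 in GR iKO (95% interval 0.46 to 5.15, adjusted p = 0.0573). The GR iKO value passed with 1 shared spread (adjusted p = 0.00787) and with only the groups compared (adjusted p = 0.0187). It also passed without Flox water replicate 1 (adjusted p = 0.044) and without GR iKO water replicates 1 (adjusted p = 0.0392) or 2 (adjusted p = 0.0218). With spike-in scaling the Duoxa2 difference turned to -0.81 in Flox and was 1.84 in GR iKO, and neither was called. In both genotypes water replicates 1 and 2 were the high ones and replicates 3 and 4 the low ones.

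**Figure D2:**
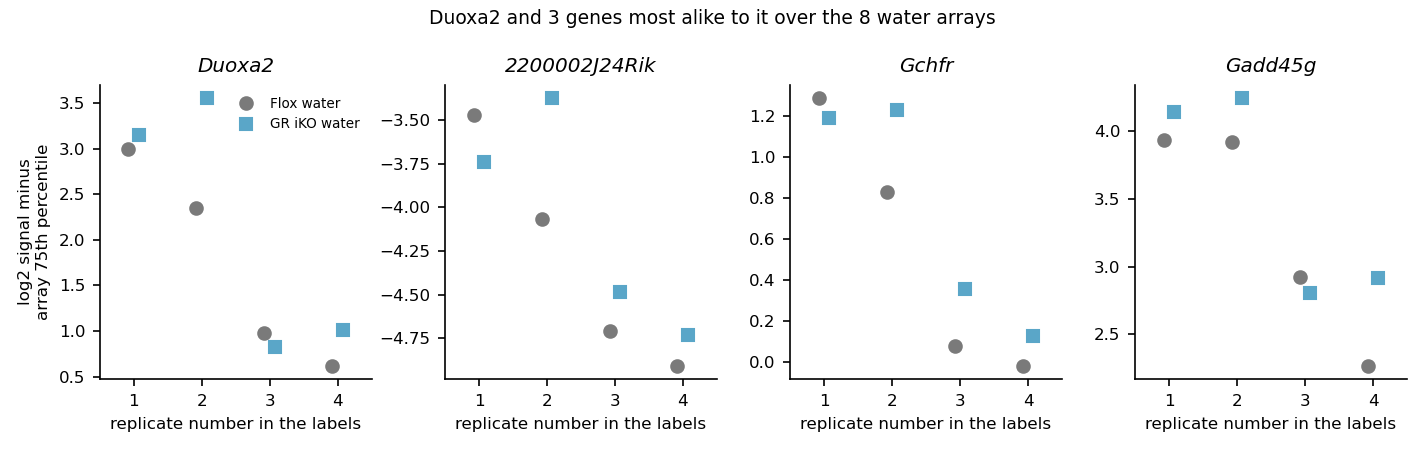
The horizontal axis gives the replicate number in the labels and the vertical axis the log2 level (75th percentile of the array at 0), for Duoxa2 and the 3 genes most alike to it over the 8 water arrays (circles Flox, squares GR iKO, 1 mouse each). Replicates 1 and 2 lie above replicates 3 and 4 in both genotypes for all 4 genes, which were chosen after the values were seen.

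Over the 8 water arrays the genes most like Duoxa2, of 15463 compared and chosen after its values were seen, were 2200002J24Rik and Gchfr (Pearson r = 0.971 each) and Gadd45g (r = 0.970). Zc3h12a, Itln1, Nod2, Sprr2h and Proc followed. Each of the 8 was higher in replicates 1 and 2 of both genotypes, which follows from choosing them for likeness to Duoxa2. Sprr2h was well above background on 3 of the 8 arrays. Itln1, an intestinal lectin, stood at 1.52, 0.61, -0.40 and -1.82 in Flox and 2.74, 3.31, -1.18 and -0.51 in GR iKO. The labels do not say what the replicate number stands for, and they matched the slide number except in GR iKO, where replicate 1 was on slide 3 and replicate 3 on slide 1. The Duoxa2 split went with the number on those slides: slide 1 held Flox replicate 1 (2.99) and GR iKO replicate 3 (0.82), and slide 3 held Flox replicate 3 (0.98) and GR iKO replicate 1 (3.15).

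The 4 phagocyte oxidase genes all rose on DSS in GR iKO, whereas in Flox Ncf1 alone passed the test. The difference between the responses was called for none of them. Spike-in scaling turned all 4 lower in Flox and Cyba lower in GR iKO. Cybb, the catalytic subunit, had levels of -1.90, -1.81, -1.52 and -1.05 in Flox and -1.80, -1.12, -1.53 and -1.89 in GR iKO mice on water. On DSS they were -0.71, -0.65 and -1.41 in Flox, of which the last lay inside the water range. In GR iKO they were 0.96, 0.00 and 0.55, above every other mouse. Cybb rose by 2.09 in GR iKO (SE 0.35, adjusted p = 0.000771), which is 4.26-fold, and its difference in Flox was 0.65 (95% interval -0.12 to 1.42, adjusted p = 0.154). A second, dimmer probe, A_51_P330331, gave the same calls, with an at least 6.02-fold rise in GR iKO.

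Ncf1, the organizer of the NOX2 complex, passed in both genotypes. It rose by 1.00 in Flox (adjusted p = 0.00954), from -3.43, -3.29, -2.78 and -2.74 on water to -1.68, -2.01 and -2.49 on DSS. In GR iKO it rose by 2.00 (adjusted p = 0.000181), from -3.45, -3.19, -3.43 and -3.43 to -1.12, -1.77 and -1.24. Water and DSS mice did not overlap in either genotype. The Flox call rests on few mice: it was lost without Flox DSS replicate 1 (adjusted p = 0.0942) or 2 (adjusted p = 0.0542), and the second Ncf1 probe, A_52_P651425, gave 0.77 with an adjusted p of 0.0674.

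Ncf4, which binds membrane phosphoinositide within the complex, had water levels of 0.88, 1.03, 1.23 and 1.50 in Flox and 0.99, 1.35, 1.06 and 0.78 in GR iKO. Its DSS levels of 3.27, 2.35 and 2.22 in GR iKO lay above all other mice, and it rose there by 1.57 (SE 0.27, adjusted p = 0.0009). In Flox the DSS levels were 1.51, 1.78 and 1.52, barely above the highest water mouse, with a difference of 0.44 (adjusted p = 0.204). Cyba, the membrane partner that NOX1 and NOX2 share, differed least. It rose by 0.60 in GR iKO (adjusted p = 0.0348), where levels of 3.14, 2.00 and 2.49 on DSS overlapped 1.82, 2.06, 1.95 and 1.95 on water, and its difference in Flox was 0.27 (adjusted p = 0.30). The Cyba call was lost in 10 of 26 alternatives while keeping its sign, among them without GR iKO DSS replicate 1, where the difference was 0.30 (adjusted p = 0.234), without GR iKO DSS replicate 4 (adjusted p = 0.0863) and without GR iKO water replicates 1, 3 or 4 (adjusted p = 0.0586, 0.0514 and 0.0514).

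Rac2, the hematopoietic GTPase of the complex, rose by 1.43 in GR iKO (adjusted p = 0.00134) and gave 0.27 in Flox (adjusted p = 0.434). Nox4, an oxidase of mesenchymal and vascular cells rather than phagocytes, rose by 2.33 (adjusted p = 0.000767) in Flox mice and by 1.14 (adjusted p = 0.0476) in GR iKO mice, though its other probe was called in neither. On water the called Nox4 probe was well above background on 1 of 4 arrays in each genotype. Nox3 was well above background on no array, and no probe matched Duoxa1.

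**Figure D3:**
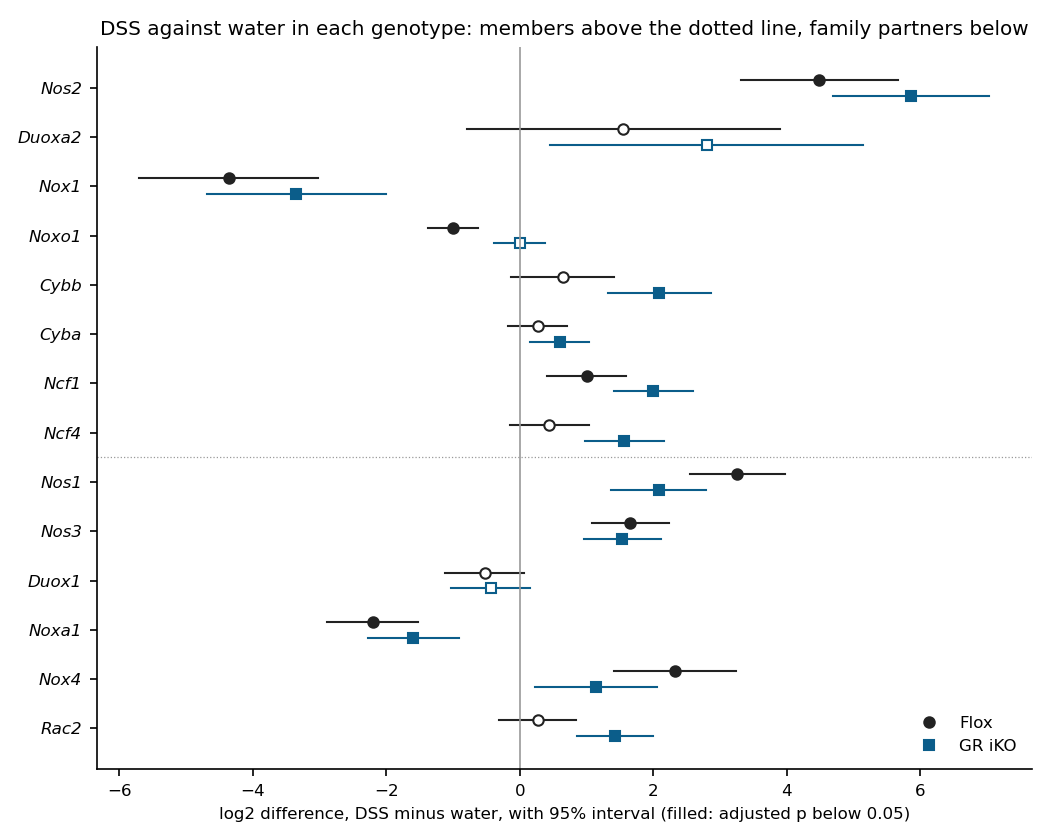
Each line is 1 gene, with the log2 difference between DSS and water on the horizontal axis, circles for Flox and squares for GR iKO, bars for 95% intervals, and filled symbols where the adjusted p was below 0.05. The phagocyte genes Cybb, Ncf1, Ncf4 and Rac2 lie further right in GR iKO than in Flox, Nox1 and Noxa1 lie left of 0 in both, and Nos1 and Nox4 lie further right in Flox.

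Promoter windows are shown for Cybb and Ncf1, which were among the phagocyte genes that rose in GR iKO on DSS. They follow the conventions above.
Cybb, chrX:9469325-9469574, minus strand: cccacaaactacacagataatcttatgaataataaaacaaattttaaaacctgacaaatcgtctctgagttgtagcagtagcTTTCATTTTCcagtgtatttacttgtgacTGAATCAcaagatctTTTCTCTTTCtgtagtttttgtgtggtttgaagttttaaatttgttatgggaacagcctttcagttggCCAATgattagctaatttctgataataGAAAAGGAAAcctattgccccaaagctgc
Ncf1, chr5:134229626-134229875, minus strand: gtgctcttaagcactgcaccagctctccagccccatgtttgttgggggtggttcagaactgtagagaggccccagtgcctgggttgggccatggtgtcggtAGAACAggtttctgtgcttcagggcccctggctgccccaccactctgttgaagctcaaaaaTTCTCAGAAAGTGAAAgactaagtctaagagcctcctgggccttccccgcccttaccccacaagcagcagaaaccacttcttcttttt
Cybb held 3 matches to the IRF motif TTTCNNTTTC and Ncf1 held 1, which overlapped its match to TTCNNNGAA. The IRF motif was in 2.98% of all windows and in none of the other 5 member windows. One of those 5 is the window of Cyba, which also rose in GR iKO on DSS and held none of the searched motifs. Cybb also held CCAAT, found in 33.8% of windows, and TGANTCA, and Ncf1 held the half-site AGAACA, found in 16.1%. Neither window held GAGGAA.

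Between the genotypes, none of the 8 members was called on water (0.0237% of all probes were) or on DSS (0.0203%), and limma's test of the difference between their DSS responses called none either (0%). At an unadjusted p below 0.05 the counts were 0 on water, 3 on DSS (Noxo1, Cybb and Ncf4) and 4 for the difference between responses (the same 3 and Ncf1). Of all 29523 probes, 982 on water, 5215 on DSS and 4372 for the difference between responses were below that unadjusted p. On water every member overlapped between the genotypes. On DSS the mice did not overlap for 4 members, Duoxa2, Noxo1, Cybb and Ncf4, all higher in GR iKO, against 11.2% of probes higher without overlap. The median difference of the members on DSS was 1.07, against 0.03 over all probes. For Cybb it was 1.43 (95% interval 0.44 to 2.41, adjusted p = 0.145), for Ncf4 1.02 (95% interval 0.26 to 1.77, adjusted p = 0.165), for Ncf1 0.68 (95% interval -0.08 to 1.44, adjusted p = 0.337) and for Cyba 0.36 (95% interval -0.21 to 0.93, adjusted p = 0.529). On the pair of slides with both DSS groups, Cybb was higher in GR iKO by 0.71 and 1.96 and Ncf4 by 0.85 and 0.71, whereas Ncf1 (-0.09 and 1.24) and Cyba (-0.35 and 0.61) differed in sign.

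Over all probes the DSS comparison between genotypes called 6 probes, 811 without Flox DSS replicate 4 and 716 without GR iKO DSS replicate 3. Without the former Noxo1 was the 1 member called, and without the latter no member was.

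Leukocyte markers, like the phagocyte oxidase genes, had their highest group mean in GR iKO mice on DSS. In Flox most neutrophil and macrophage markers rose with DSS, whereas Cybb, Cyba and Ncf4 did not pass the test. The summed level of 6 pan-leukocyte markers was 8.34 to 13.2 on water, 13.7 to 16.4 in Flox DSS and 19.8 to 36.9 in GR iKO DSS, which is the order of Cybb and Ncf4. Of these markers 1 rose in Flox (Laptm5) and all 6 rose in GR iKO. Of all probes 21.8% rose in Flox and 19% in GR iKO, the shares to set beside each marker count here. Neutrophil markers summed to 0.161 to 0.675 on water, 24.6 to 67.6 in Flox DSS and 85.0 to 292 in GR iKO DSS, with 8 of 9 called higher in Flox and 9 of 9 in GR iKO. On water Cxcr2 and Mmp8, which mark neutrophils, were well above background on no array. Macrophage and monocyte markers summed to 14.5 to 22.1 on water, 26.9 to 50.7 in Flox DSS and 39.7 to 87.0 in GR iKO DSS, with 6 and 8 of 10 called higher. None of these markers was called between the genotypes on DSS, and the part of leukocyte content in the oxidase values was not tested.

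**Figure D4:**
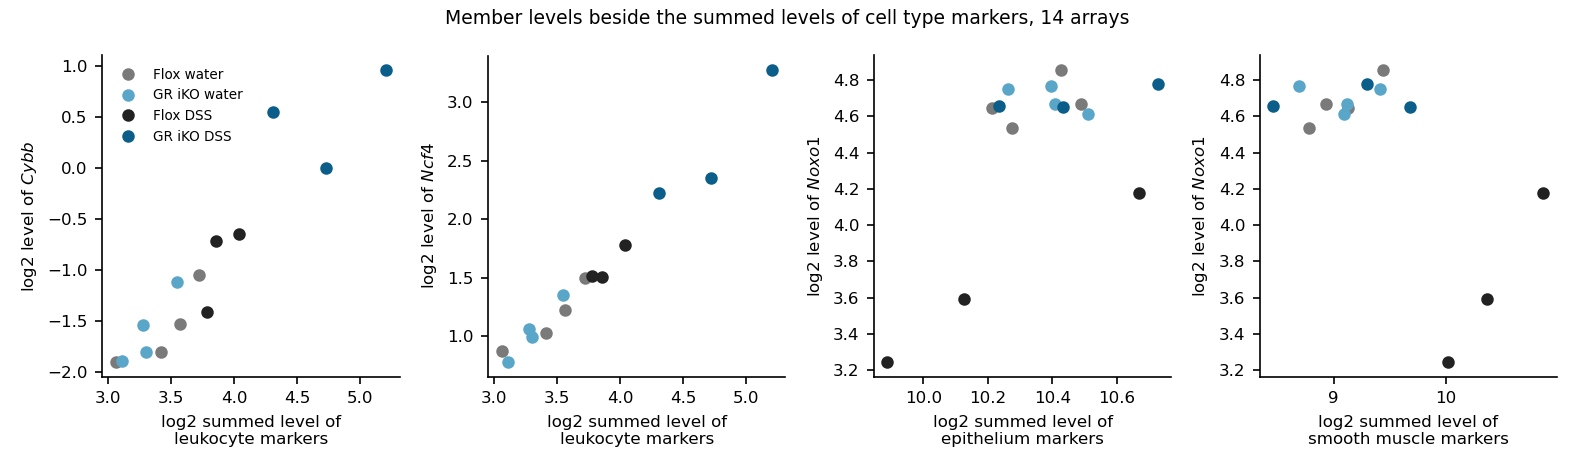
Each point is 1 array, coloured by group, with the log2 level of Cybb, Ncf4 or Noxo1 on the vertical axis and the log2 summed level of cell type markers on the horizontal axis. Cybb and Ncf4 lie highest on the 3 GR iKO DSS arrays, which also hold the highest leukocyte sums, and Noxo1 is lowest on the 3 Flox DSS arrays, which hold the highest smooth muscle sums.

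Over all 14 arrays, the genes whose levels ran most like each member were, for Cybb, Treml4 (Pearson r = 0.993), Lcp1 (r = 0.984) and Mpeg1 (r = 0.982), of which Lcp1 is among the pan-leukocyte markers. For Nos2 they were Tgm2 (r = 0.991), Trim15 (r = 0.990) and Irf9 (r = 0.989). For Nox1 they were H2aj (r = 0.990), Eif2b1 (r = 0.987) and Polr3g (r = 0.985). For each of these members they are the highest of 15463 correlations, in descending order. The arrays fall into a water and a DSS cluster, so the values describe the ranking only.

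A list of 14 held genes that act on the oxidases and the peroxidase genes Mpo, Lpo and Epx. All but Epx were tested, and Rac2, described above, was among the 13 tested. In Flox 4 fell and none rose on DSS, against 25.4% and 21.8% of all probes, and in GR iKO 8 rose and 1 fell, against 19% and 19.7%. The median difference was 0.27 in Flox and 0.64 in GR iKO. The largest falls in Flox were Hvcn1, the proton channel that balances the oxidase's charge (-2.08, adjusted p = 0.00276), Pik3cg, a phosphoinositide kinase (-1.32, adjusted p = 0.00415), and Prkcd, a kinase of the cytosolic subunits (-1.30, adjusted p = 8.75e-05). In GR iKO Hvcn1 and Pik3cg did not pass (-0.07 and -0.58), and Prkcd fell by 0.57. None of the 13 was called in the test of the difference between responses.

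Of 23 antioxidant genes, 5 rose and 5 fell with DSS in Flox, close to the shares of all probes (21.8% and 25.4%), and 8 rose and 3 fell in GR iKO, against 19% and 19.7% of all probes. The median difference was 0.08 in Flox and 0.04 in GR iKO. Hmox1, heme oxygenase, rose by 2.26 in Flox and 3.13 in GR iKO. Gpx3, the secreted glutathione peroxidase, rose by 1.79 and 1.92, and Sod3, the extracellular superoxide dismutase, rose by 1.52 in Flox and gave 1.28 in GR iKO (adjusted p = 0.0891). Nqo1, a quinone reductase, fell by 1.70 and 1.88. Prdx6 and Gss, a peroxiredoxin and glutathione synthetase, fell by 1.40 and 1.16 in Flox and did not pass in GR iKO (-0.77 and -0.38).

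**Figure D5:**
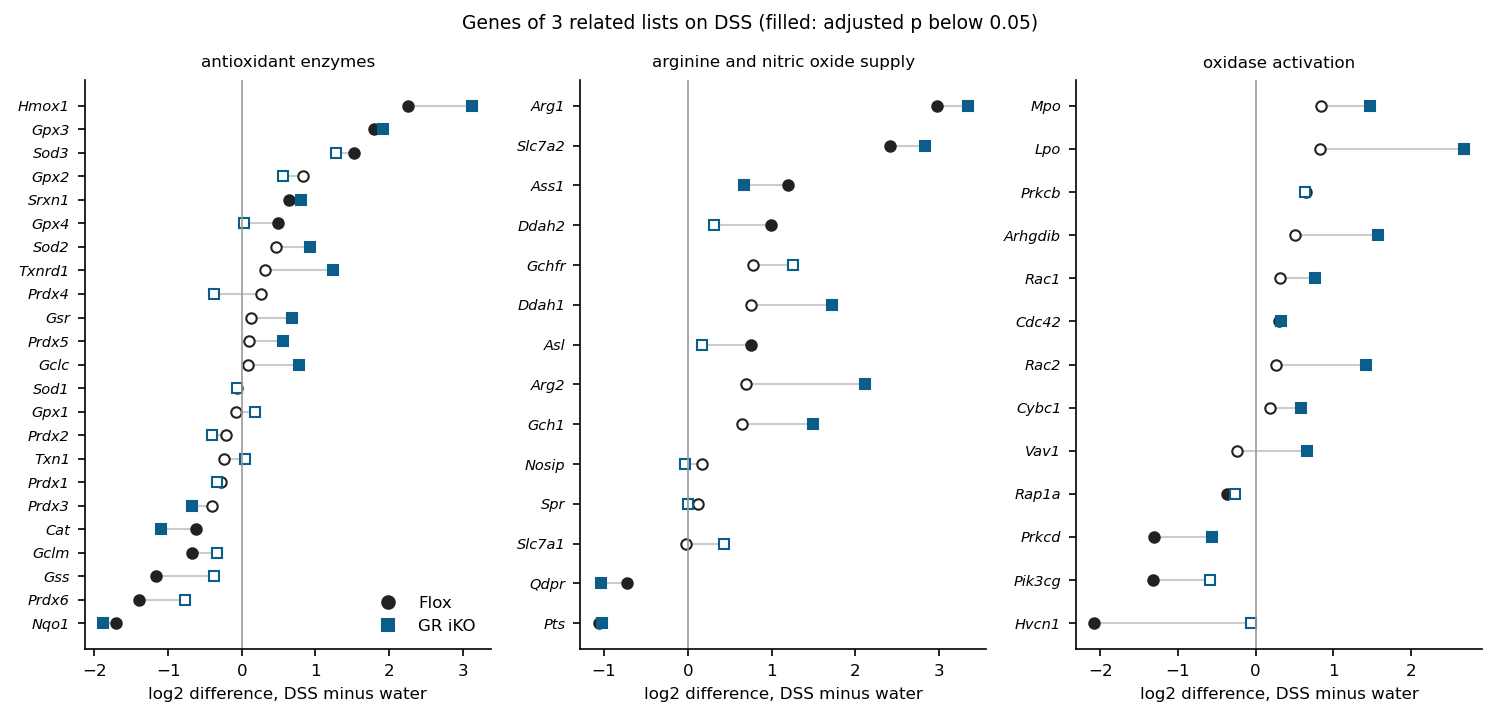
For each gene of the antioxidant, arginine and nitric oxide supply, and oxidase activation lists, the horizontal axis gives the log2 difference between DSS and water, with circles for Flox, squares for GR iKO and filled symbols where the adjusted p was below 0.05. In the oxidase activation list no filled circle lies right of 0 and 8 filled squares do, whereas Hmox1 and Arg1 lead their lists in both genotypes.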

How the data were processed

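Colon RNA of 14 mice was hybridized to 14 Agilent arrays, starting from 500 ng per mouse, and the labels gave the groups and replicate numbers. Per the labels and the file headers, the authors extracted the spots with Agilent Feature Extraction 12.0.0.7 and used Partek 6.6. The deposited scanner files hold an intensity on a linear scale for 45018 spots per array, background-subtracted and detrended, with values near background raised to a positive surrogate, which shrinks differences of dim probes. The deposited value table holds log2 values of the same arrays. Against the same array's log2 processed intensity it correlated at 0.998 or more, and every array of it had the same lower quartile (2.54), so its scale and quantile centring follow from the data, and it served as an alternative.

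The 1639 control spots were dropped. Spots that the scanner software marked as population outliers or non-uniform counted as missing, and replicate spots of a probe were averaged. From log2 processed intensity the array's 75th percentile was subtracted. Of 41174 probes, the 29523 well above background on at least 3 arrays were tested, 97 of them with a missing value on some array. Probes were named by matching RefSeq accessions to a GRCm38.p6 gene table (28223 of 29245 matched). The array grid was drawn on another build, so no probe coordinates are given.

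A mean per group was estimated by limma 3.58.1 (functions lmFit and eBayes) in R 4.3.3, with 1 array weight per treatment (1.70 for water, 0.495 for DSS), because DSS arrays vary more than water arrays. Tests were two-sided and called at an adjusted p below 0.05 over all probes tested. The fit was tested on simulated data in which far fewer probes changed with DSS than were called here, so its rates may differ in these data. For DSS against water 5.88% of its calls were false in Flox and 11.4% in GR iKO. Between the genotypes on DSS it recovered 23.5% of log2 differences of 1 and 81.5% of those of 2, and 13.6% of its calls were false. For the difference between responses it recovered 7.0% and 65.0%. Most differences of 1 in these comparisons were missed in that setting, and could be missed here. Nr3c1 was also tested by exact two-sided permutation, which can reach 0.0286 with 4 against 4 mice and 0.1 with 3 against 3. The number of arrays limits the precision. A bound ("at least") was used where a probe was well above background on no array of a group: per array, the higher of the dimmest signal well above background and the probe's own signal stood for the dim group. A gene was represented by its probe with the highest mean level, and for members, their partners and Nr3c1 other probes are named where their call differs. All members and listed family partners are described, and 1 further gene of the family is not reported here. Of each related list, up to 3 called genes with the largest rise and 3 with the largest fall in Flox are named. The members, lists, weights and tests were chosen with earlier results of these data known. The files have no mean-signal column, so normexp correction (offset 50) used the median signal. Alternatives changed the spread model, block, background, scaling, filter, flagged spots and prior, and left out each array. Motifs were searched in Python 3.11.15 in RefSeq promoter windows, which covered 7 of the 9 members and not Nos2 or Ncf4.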

Additional observations from a re-analysis of the deposited data

Results flagged for a closer look

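The levels of the 8 members were checked for single distant mice in the 2 water groups of 4, which made 16 groups. One stood out by Dixon's ratio: Ncf1 in GR iKO mice on water, where replicate 2 lay at -3.19 and the others between -3.45 and -3.43, so that its gap to the nearest mouse was 0.896 of the group's range, above the critical value of 0.829. Chance gives about 1 such group in 20. The groups of 3 DSS mice were not checked.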

How the results depend on the processing

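The count of members called kept within 1.5 times its value under most of the 26 alternatives. Scaling to spike-in transcripts gave 7 members called in place of 4 with DSS in Flox, 3 in place of 6 in GR iKO, and 6 in place of 0 for the difference between the responses. With that scaling the Flox differences of Cybb, Cyba, Ncf1 and Ncf4 turned to -1.72, -2.09, -1.36 and -1.92, and that of Cyba in GR iKO turned to -0.36. The Flox difference of Duoxa2, not called, turned to -0.81. GR iKO against Flox on DSS gave 3 members (Noxo1, Cybb and Ncf4) in place of 0 with 1 shared spread, which made more false calls in this comparison on simulated data, and 1 with a trended and robust prior. Leaving out each array in turn gave 3 to 4 members with DSS in Flox, 5 to 7 in GR iKO, 0 between the genotypes on water, 0 to 1 between them on DSS and 0 for the difference between the responses.

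Whether the replicate numbers pair the mice is not given by the labels. The correlation of deviations between same-numbered mice ran from -0.23 to 0.31 over 18 pairs (median 0.10). Between differently numbered mice it ran from -0.28 to 0.25 over 55 pairs (median -0.02), so the ranges overlapped widely. With the replicate number as a block the counts of members called were 4 in Flox and 6 in GR iKO, as without it, with Duoxa2 called in GR iKO (3.09, adjusted p = 0.00234) and Cyba no longer called (0.60, adjusted p = 0.0595). With slide as a block the same exchange occurred (Duoxa2 3.07, adjusted p = 0.0314; Cyba 0.60, adjusted p = 0.0562). The cause of these changes was not tested. Over all probes GR iKO against Flox on DSS gave 6 called, 3903 with 1 shared spread, 0 with either block or only the groups compared, and 0 to 811 when each array was left out, and the difference between the responses gave 0, 8662 with spike-in scaling and 0 to 48 when each array was left out.

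Signal limits Nos2, at background in all 8 water mice, and Nox1, at background in 4 of 6 DSS mice, so their fitted differences depend on the background correction. With 3 mice per DSS group the 95% interval of the genotype difference included 0 for 5 of the 8 members.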
